A study of Aspergillus fumigatus with 4 samples.

Results

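The 6 genes described here encode regulators and other components of the unfolded protein response and of protein degradation in *Aspergillus fumigatus* Z5. This fungus secretes large amounts of plant cell wall-degrading enzymes. The 6 genes were chosen by locus tag: ire1 (Y699_07090), hacA (Y699_02024), CpcA (Y699_04896), Der1 (Y699_07233), Doa1 (Y699_00683) and Rpn4 (Y699_04991). All 6 are called regulators here for short, although Der1 and Doa1 are parts of the degradation machinery. CpcA is included because the study lists it with the unfolded protein response. The regulators are 6 of the 9540 genes in the deposited table, and all 6 had reads in every library.

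4 transcriptomes of strain Z5, 1 library for each carbon source, were measured by mRNA sequencing. Conidia grew at 45 °C for 20 h, as given in the labels, with sucrose as the carbon source in a medium that also held yeast extract. This sucrose culture served as the control. For the other libraries the mycelia were washed and moved for 16 h to a medium without yeast extract that held xylan (the main hemicellulose), Avicel (microcrystalline cellulose) or rice straw in place of sucrose. The study gives these polymers at a lower concentration than the sucrose. All 4 are cultures of strain Z5, and the labels name no genetic change and no drug. The carbon source of a transferred library therefore cannot be told apart from the transfer and the medium when it is set against sucrose, while pairs of transferred libraries share both. The study's methods give a longer preculture than the 20 h of the labels, and the age of the sucrose culture at harvest is not clear, so culture age may differ too. The comparisons describe the regulators in mycelium kept for 16 h with each polymer. The study reports that the xylan broth had cleared by then, while Avicel and straw were not used up. What the mycelium fed on at harvest was not measured here.

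As background, proteins that enter the endoplasmic reticulum (ER) are folded there, and unfolded proteins activate Ire1, a kinase and ribonuclease of the ER membrane. In fungi Ire1 cuts an unconventional intron from the hacA mRNA, and the protein made from the spliced mRNA, a bZIP transcription factor, activates genes for chaperones and for ER-associated degradation (ERAD). In ERAD, misfolded proteins are moved back to the cytosol, tagged with ubiquitin, extracted by the ATPase Cdc48 and broken down by the proteasome. Reads counted per gene do not separate spliced from unspliced hacA mRNA, and mRNA levels of ire1 do not measure its activity.

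The libraries held between 6820702 and 7553138 reads on genes, and between 9252 and 9275 genes had at least 1 read. Levels are given as RPM, the reads of a gene per 1000000 reads of its library. Intervals are exact 95% intervals from the number of reads. They cover counting error only, since reads from PCR without molecular identifiers are not independent molecules and there is no replicate culture. A gene is described as called when its RPM differed at least 4-fold between 2 libraries, reached 10 RPM in either library and passed an exact read test at an adjusted value (q) of at most 0.0001. That test compares 2 libraries, not 2 carbon sources. The median log2 ratio of all genes tested was -0.20 for xylan, 0.07 for cellulose and -0.30 for rice straw against sucrose, and ratios of the regulators are also given relative to these medians. Spore-forming (conidiation) genes were read too. The 7 used were named from the study's own lists of varying genes and so chosen on these libraries. Of them 6 were called higher in cellulose than in sucrose, 2 in xylan and 1 in rice straw. Of all genes tested, 10.9%, 3.16% and 7.61% were called higher in that order. Because of how they were chosen, these counts do not set the 7 genes apart from all genes. Their RPM ranged from 0.571 to 6.99 in sucrose, from 3.23 to 22.3 in xylan, from 23.8 to 2072 in cellulose and from 0.265 to 41.8 in rice straw, so none was at 0. Their part in any cellulose result below was not tested.

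The regulators fell into opposite directions. CpcA and Rpn4 were higher than sucrose in all 3 transferred libraries, and hacA, Der1 and Doa1 were lower in all 3. The gene ire1 was higher in cellulose and lower in xylan and rice straw. Within each gene, the libraries lay further apart than counting error in 18 of 18 neighbouring pairs of levels. This was counted for the regulators only, with no share over all genes, so it does not set them apart. The direction for hacA in xylan and in cellulose depends on the scaling and is given with that gene.

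**Figure D1:**
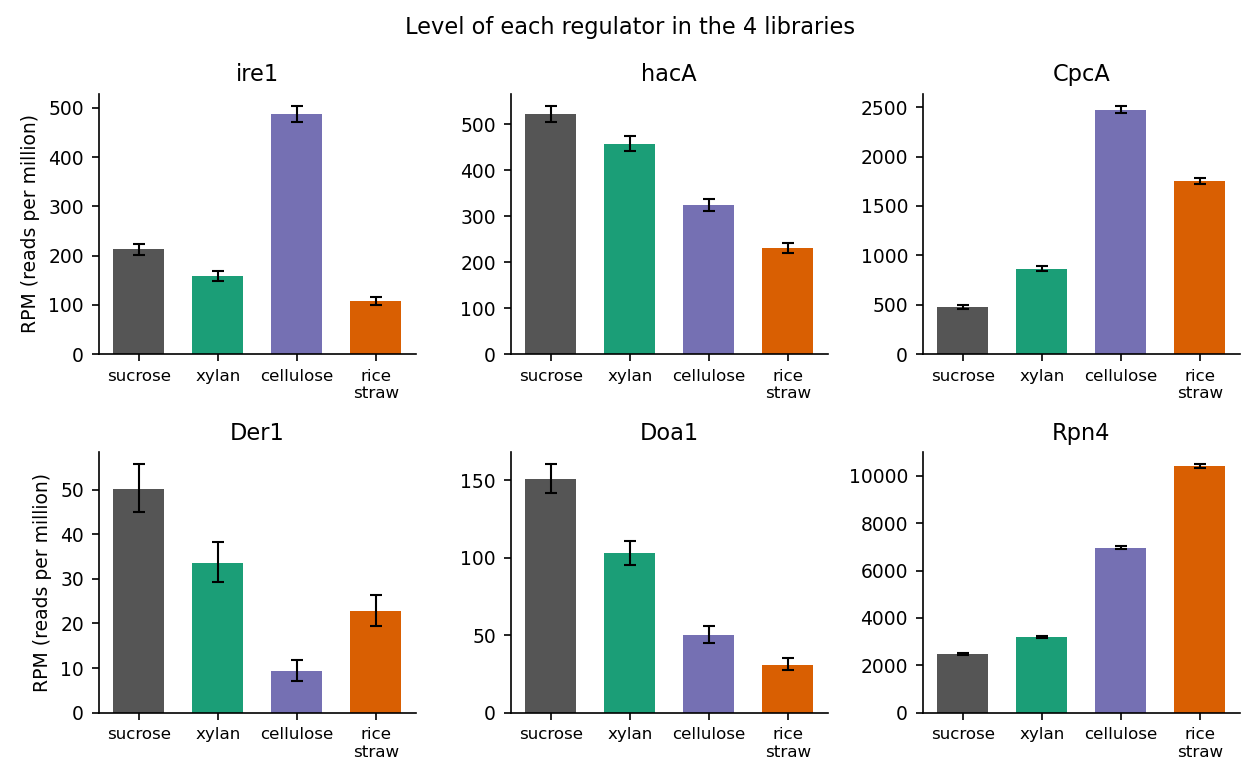
Level of each regulator in the sucrose, xylan, cellulose and rice straw libraries, in RPM on axes that start at 0 and differ between panels; bars are the value of 1 library and error bars its exact 95% counting interval. CpcA and ire1 were highest in cellulose and Rpn4 in rice straw, while hacA, Der1 and Doa1 were highest in sucrose.

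The sensor gene ire1 had 213 RPM in sucrose, 158 RPM in xylan, 487 RPM in cellulose and 108 RPM in rice straw. The cellulose library was the only 1 of the 3 transferred libraries with a level above sucrose. Its ratio to sucrose was 2.29-fold (interval 2.15 to 2.43), a log2 ratio of 1.19, which was 1.12 above the median of all genes. Rice straw stood 1.97-fold (1.81 to 2.15) below sucrose, -0.68 relative to the median of all genes on the log2 scale. Xylan stood 1.34-fold (1.24 to 1.45) below sucrose. The widest gap for ire1 was between cellulose and rice straw, 4.51-fold (4.18 to 4.87). The call for this gap was lost with trimmed mean (TMM) factors (log2 1.80), DESeq2 size factors (1.79) and totals without the most abundant 1% of genes (1.96). Scaled to actin and histone, the ratio of ire1 in cellulose to sucrose became 2.13 on the log2 scale and was called. With that scaling 2026 of the 9423 genes tested were called higher there, so this call does not set ire1 apart.

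The gene hacA, the transcription factor downstream of Ire1, had 523 RPM in sucrose, 458 RPM in xylan, 324 RPM in cellulose and 232 RPM in rice straw. Its level was lowest in rice straw and its whole range was 2.25-fold, the narrowest of the 6. Against sucrose hacA was 1.14-fold (1.09 to 1.20) lower in xylan, 1.61-fold (1.53 to 1.70) lower in cellulose and 2.25-fold (2.13 to 2.39) lower in rice straw. Relative to the median of all genes these log2 ratios were 0.01, -0.76 and -0.87. In xylan hacA thus lay at the middle of all genes, and its sign turned under TMM factors (log2 0.00), DESeq2 size factors (0.02) and scaling to actin and histone (0.12). In cellulose it turned under scaling to actin and histone alone among 4 other scalings (0.25). In rice straw it stayed negative under all 4, between -1.01 and -0.61. The order of ire1 and hacA over the libraries differed. Per kilobase of coding length, hacA stood 6.60 times above ire1 in sucrose, 7.77 times in xylan and 5.77 times in rice straw, but 1.79 times in cellulose.

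CpcA is the bZIP factor of cross-pathway control, the counterpart of yeast Gcn4, which activates amino acid biosynthesis genes when amino acids are scarce. It had 478 RPM in sucrose, 866 RPM in xylan, 2475 RPM in cellulose and 1751 RPM in rice straw. All 3 transferred libraries were above sucrose, with cellulose the highest. The ratio to sucrose was 1.81-fold (1.74 to 1.89) in xylan, 5.18-fold (4.99 to 5.37) in cellulose and 3.66-fold (3.53 to 3.80) in rice straw. On the log2 scale these were 1.05, 2.30 and 2.17 above the median of all genes, so relative to that median cellulose and rice straw were close. CpcA was called in cellulose under total scaling and under all 4 other scalings. In rice straw it missed the 4-fold threshold under total scaling and was called under all 4 others, at log2 ratios from 2.04 to 2.44. Between the transferred libraries CpcA was 2.86-fold (2.77 to 2.94) higher in cellulose and 2.02-fold (1.96 to 2.08) higher in rice straw than in xylan.

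Der1 is a membrane protein of the ER that in yeast helps misfolded proteins out of the ER lumen. It had 50.1 RPM in sucrose (351 reads), 33.6 RPM in xylan (229 reads), 9.26 RPM in cellulose (65 reads) and 22.8 RPM in rice straw (172 reads). It had the fewest reads of the 6 in every library, and so the widest intervals. Cellulose was the lowest library, 5.41-fold (4.14 to 7.16) below sucrose, a log2 ratio of -2.44, or -2.51 relative to the median of all genes. Xylan stood 1.49-fold (1.26 to 1.77) and rice straw 2.20-fold (1.83 to 2.66) below sucrose. The call in cellulose held under 3 of 4 other scalings and was lost with scaling to actin and histone (log2 -1.49). Against xylan, Der1 was 3.62-fold (2.74 to 4.85) lower in cellulose, which became a call under TMM factors (log2 -2.13) and DESeq2 size factors (-2.15).

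Doa1, also named Ufd3, binds ubiquitin and is a cofactor of Cdc48 in yeast. It had 151 RPM in sucrose, 103 RPM in xylan, 50.3 RPM in cellulose and 31.1 RPM in rice straw. Both ERAD genes were below sucrose in every transferred library, but the lowest library was cellulose for Der1 and rice straw for Doa1. Doa1 was 1.47-fold (1.33 to 1.62) lower than sucrose in xylan, 2.996-fold (2.65 to 3.39) lower in cellulose and 4.84-fold (4.20 to 5.60) lower in rice straw. Relative to the median of all genes these log2 ratios were -0.36, -1.66 and -1.98. The call in rice straw was lost with TMM factors (log2 -1.98), DESeq2 size factors (-1.98) and actin and histone (-1.71), and held without the most abundant 1% of genes (-2.11). Per kilobase of coding length Doa1 stood 0.951 times as high as Der1 in sucrose, 0.967 times in xylan, 1.72 times in cellulose and 0.432 times in rice straw.

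Rpn4 is a C2H2 zinc finger factor that in *Saccharomyces cerevisiae* activates the genes of the proteasome and is itself a short-lived proteasome substrate. It had 2468 RPM in sucrose, 3215 RPM in xylan, 6971 RPM in cellulose and 10402 RPM in rice straw. Per kilobase of coding length it was the highest of the 6 in every library, and the rice straw library was the highest. The ratio to sucrose was 1.30-fold (1.28 to 1.33) in xylan, 2.82-fold (2.78 to 2.87) in cellulose and 4.22-fold (4.15 to 4.29) in rice straw. On the log2 scale these were 0.58, 1.42 and 2.38 above the median of all genes. The call in rice straw held under all 4 other scalings, at log2 ratios from 2.24 to 2.64, and the ratio in cellulose reached the threshold only with actin and histone (2.44). Rpn4 was 3.24-fold (3.19 to 3.28) higher in rice straw than in xylan and 1.49-fold (1.48 to 1.51) lower in cellulose than in rice straw.

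Against sucrose, no regulator was called in xylan, where 3.16% of 9392 genes tested were called higher and 1.57% lower. In cellulose 1 of 6 was called higher (CpcA) and 1 lower (Der1), beside 10.9% and 7.28% of 9423 genes tested. In rice straw 1 of 6 was called higher (Rpn4) and 1 lower (Doa1), beside 7.61% and 7.12% of 9408 genes tested. With so few genes, 1 of 6 in a direction is not set apart from these shares. At a 2-fold threshold, 0 regulators were called in xylan (7.5% of all genes higher and 8.98% lower). In cellulose 3 were then called higher (ire1, CpcA and Rpn4) and 2 lower (Der1 and Doa1), beside 20.9% and 16.6% of all genes. In rice straw 2 were called higher (CpcA and Rpn4) and 3 lower (hacA, Der1 and Doa1), beside 14.4% and 21.8%. These 3 comparisons share the sucrose library, so the calls are not independent of each other. With an assumed variation between replicates of 0.4 (a coefficient of variation) in an edgeR exact test, 0 of 6 were called in cellulose and 0 in rice straw. With 0.2 the calls numbered 2 in each. Over all genes, the calls in cellulose went from 1025 higher and 686 lower to 209 and 138 at 0.4. In rice straw they went from 716 and 670 to 153 and 61. With 1 library on each side and that spread, ratios as small as those of the regulators fall short of the q threshold at any depth. These 0 counts therefore decide nothing about the regulators. The call of ire1 between cellulose and rice straw, given next, was also lost at 0.4.

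**Figure D2:**
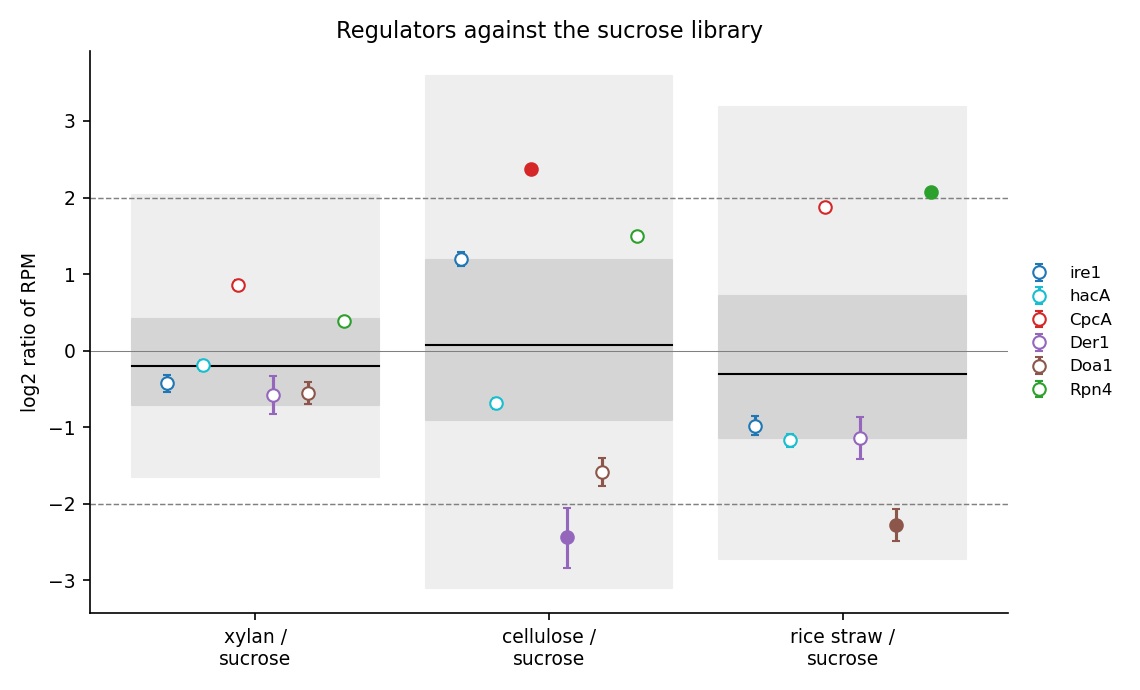
Log2 ratio of RPM of each regulator against sucrose for xylan, cellulose and rice straw, with exact 95% counting intervals; filled points passed the 4-fold call, dashed lines mark 4-fold, the black line is the median of all genes tested and the grey bands hold the middle 50% and 90% of them. CpcA and Rpn4 lay above the median of all genes in each comparison, and Der1 and Doa1 below it.

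Between the transferred libraries, which share the transfer and the medium, the 4-fold rule called 1 regulator in 3 comparisons. In cellulose against xylan 0 of 6 were called, where 9.65% of all genes tested were called higher and 6.49% lower. In rice straw against xylan 0 of 6 were called, beside 4.56% higher and 4.68% lower. In cellulose against rice straw ire1 was called higher, beside 5.76% of all genes higher and 4.26% lower. The medians of all genes in these pairs were 0.28, -0.11 and 0.36. Below the threshold, Doa1 was 3.30-fold (2.85 to 3.85) lower in rice straw than in xylan, and ire1 was 3.07-fold (2.87 to 3.30) higher in cellulose than in xylan. CpcA differed less between cellulose and rice straw, 1.41-fold (1.38 to 1.45) higher in cellulose. This was 0.14 above the median of all genes on the log2 scale.

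Levels can be compared between genes after division by coding length. In sucrose Rpn4 stood at 1125 RPM per kilobase, hacA at 402, CpcA at 384, Der1 at 66.8, Doa1 at 63.5 and ire1 at 60.9. The intervals of hacA and CpcA overlapped there, as did those of Der1, Doa1 and ire1, so sucrose held 3 tiers. In cellulose the order was Rpn4 at 3179, CpcA at 1988, hacA at 249, ire1 at 139, Doa1 at 21.2 and Der1 at 12.4 RPM per kilobase. All 6 stood apart in cellulose, and CpcA had moved from level with hacA to 7.98 times above it. In rice straw that ratio was 7.89, and in xylan it was 1.98. By rank among all 9540 genes of the library, Rpn4 was 112th in sucrose, 80th in xylan and 17th in both cellulose and rice straw. CpcA was 360th in sucrose, 227th in xylan, 29th in cellulose and 86th in rice straw. At the other end, Der1 passed from the 80.4th percentile of genes in sucrose to the 38.5th in cellulose, and Doa1 from the 79.3rd to the 46.9th in rice straw.

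**Figure D3:**
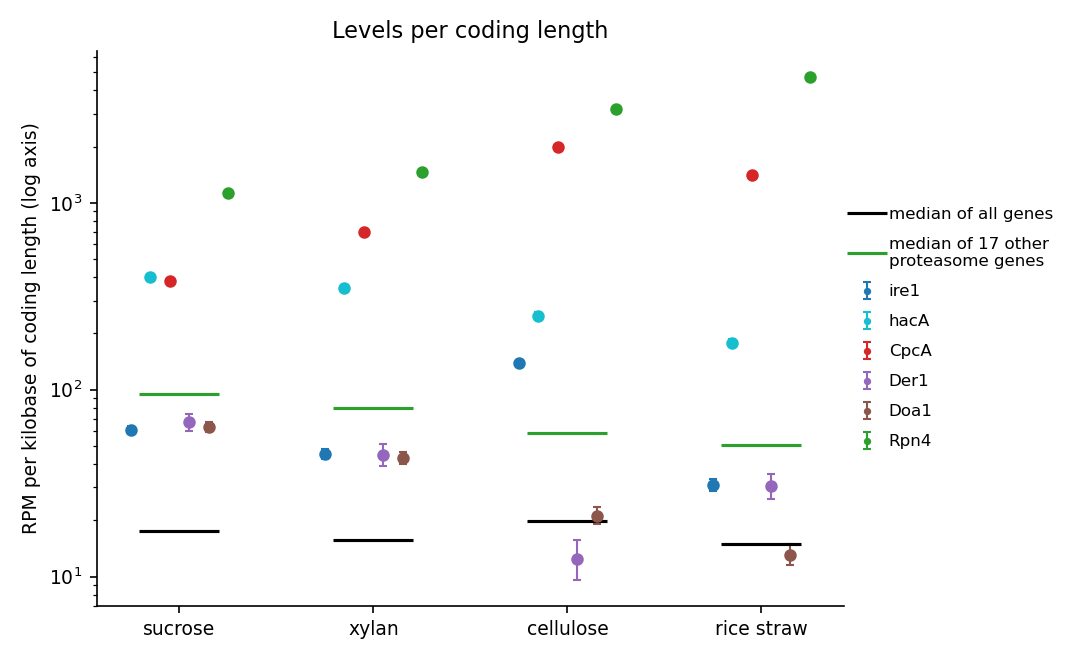
RPM per kilobase of coding length (log axis) of the 6 regulators in each library, with exact 95% counting intervals; black dashes are the median of all genes and green dashes the median of 17 other proteasome genes. Rpn4 and CpcA were the highest in cellulose and rice straw, and in cellulose Der1, at 12.4, lay below the median gene at 19.9.

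In cellulose and rice straw Rpn4 was above sucrose while most other proteasome genes were below it, except that with scaling to actin and histone the other genes in cellulose were split between both sides. The study's proteasome list holds Rpn4 and 17 other genes, mostly subunits of the regulatory particle that recognises and unfolds tagged proteins. None of the 17 was called at 4-fold against sucrose, in either direction, in any of the 3 libraries. Of all genes, at most 10.9% were called higher and 7.28% lower in any of them. Their median log2 ratio was -1.15 in rice straw, -0.92 in cellulose and -0.36 in xylan, beside -0.30, 0.07 and -0.20 for all genes tested. In rice straw 17 of 17 were below sucrose, by log2 ratios from -1.90 to -0.20, and 10 of them passed the 2-fold call, beside 21.8% of all genes. In cellulose 16 of 17 were below sucrose and 5 passed the 2-fold call, beside 16.6% of all genes. The exception in cellulose was the gene annotated as ATPase subunit Rpt5 (Y699_06685), the highest of the 17 in mean RPM. It had 520 RPM in sucrose, 353 RPM in xylan, 556 RPM in cellulose and 367 RPM in rice straw. Its deposited length exceeds that of the other Rpt genes listed, and the reason was not tested. Per kilobase it stood at 131 in sucrose, where the highest of the 17 had 222, and at 140 in cellulose, the highest there. Rpn2 (Y699_06233), named after its values were seen, had the lowest ratio in rice straw, with 433 RPM in sucrose and 116 RPM in rice straw. Scaled to actin and histone, the median of the 17 became 0.02 in cellulose, with 8 below and 9 above sucrose, and -0.59 in rice straw, while all genes moved to 1.02 and 0.27. Each scaling shifts all genes alike, so the median of the 17 relative to that of all genes is the same under every one, at -0.85 in rice straw, -0.997 in cellulose and -0.16 in xylan. Per kilobase of coding length, Rpn4 stood 11.9 times above the median of the 17 in sucrose, 18.4 times in xylan, 54.1 times in cellulose and 93.8 times in rice straw. These ratios lie within a library and do not depend on the scaling.

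**Figure D4:**
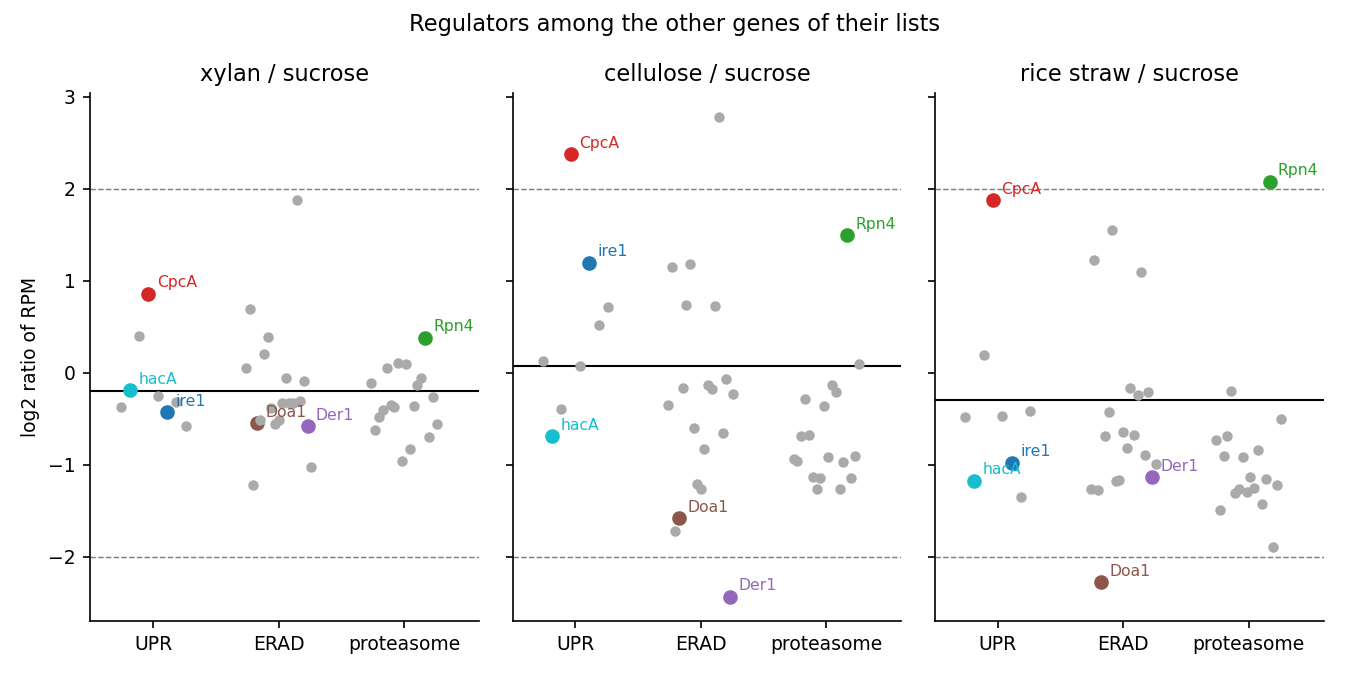
Log2 ratio of RPM against sucrose for every gene of the UPR (8), ERAD (19) and proteasome (18) lists, 1 point per gene, with the 6 regulators coloured and named; the black line is the median of all genes tested and dashed lines mark 4-fold. Rpn4 lay above all 17 other proteasome genes in each comparison, and CpcA was the highest UPR gene.

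The study's list for the unfolded protein response (UPR) holds 8 genes, of which hacA, ire1 and CpcA are 3. The other 5 are a tRNA ligase, a pair of type 2C protein phosphatases, an Orm1 homologue and a DnaJ and TPR domain protein. None of these 5 was called at 4-fold against sucrose, which with so few genes is not set apart from the shares of all genes given above. Their log2 ratios ran from -0.58 to 0.40 in xylan, from -0.40 to 0.71 in cellulose and from -1.35 to 0.19 in rice straw. Their median was -0.32, 0.12 and -0.47 in that order, or -0.12, 0.05 and -0.17 relative to the median of all genes. The tRNA ligase (Y699_08292), whose yeast homologue joins the exons of the mRNA that Ire1 cuts, was named after its values were seen. It had 21.6 RPM in sucrose, 17.3 RPM in xylan, 30.8 RPM in cellulose and 8.47 RPM in rice straw. It was highest in cellulose and lowest in rice straw, as ire1 was. So were the DnaJ and TPR domain protein (Y699_01995), at 95.6 and 63.2 RPM in those libraries, and the phosphatase Y699_05206, at 76.0 and 51.9 RPM. The other phosphatase (Y699_08330) was lowest in xylan and the Orm1 homologue (Y699_04826) lowest in cellulose. The study's list for protein folding holds 17 genes. It includes chaperone and disulfide genes of the ER that HacA is known to activate, but also others, such as an FAD synthetase and GTP cyclohydrolase II. Below sucrose were 14 of the 17 in rice straw, 13 in cellulose and 13 in xylan. Their median log2 ratios were -0.63, -0.59 and -0.64, beside -0.30, 0.07 and -0.20 for all genes. With scaling to actin and histone the median in cellulose turned to 0.36, under a median of 1.02 for all genes. The log2 ratios of the 17 ran from -1.95 to 0.93 in xylan, from -2.73 to 0.81 in cellulose and from -2.07 to 1.58 in rice straw. The highest in cellulose was a nucleotide sugar transporter (Y699_06756), and the highest in rice straw a flavin-binding monooxygenase-like protein (Y699_07510). At 4-fold 1 of the 17 was called lower in cellulose and 1 in rice straw, beside 7.28% and 7.12% of all genes. Both are among the 5 genes given next. BipA (Y699_03241), the ER Hsp70, had 461, 284, 578 and 283 RPM in sucrose, xylan, cellulose and rice straw, the disulfide isomerase PdiA (Y699_03389) had 457, 304, 452 and 187 RPM, and calnexin ClxA (Y699_04863) had 410, 242, 308 and 265 RPM. Oxidoreductin (Y699_05568) had 648, 1236, 97.9 and 163 RPM in the same order and was called lower in cellulose, while in xylan it was 1.91-fold above sucrose, and the DnaJ-related SCJ1 (Y699_02973) had 47.7, 12.3, 24.7 and 11.4 RPM and was called lower in rice straw, with xylan nearly as low.

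The ERAD list holds 19 genes, of which Der1 and Doa1 are 2. Of the other 17, 1 was called against sucrose, higher in cellulose, beside 10.9% of all genes called higher there. It was the DnaJ-type gene Y699_06791, annotated as Mas1 and listed by the study as the counterpart of yeast Ydj1, a cytosolic Hsp40 co-chaperone. It had 98.1 RPM in sucrose, 361 RPM in xylan, 670 RPM in cellulose and 209 RPM in rice straw. It was above sucrose in all 3 transferred libraries, by 6.83-fold (6.31 to 7.41) in cellulose. Cdc48 (Y699_02167), the ATPase that Doa1 serves and the ERAD gene with the highest mean RPM over the 4 libraries, had 606 RPM in sucrose, 423 RPM in xylan, 540 RPM in cellulose and 375 RPM in rice straw. Its ratio to sucrose was 1.61-fold (1.54 to 1.69) lower in rice straw, against 4.84-fold for Doa1. The median log2 ratio of the 17 was -0.68 in rice straw, -0.18 in cellulose and -0.33 in xylan, beside -0.30, 0.07 and -0.20 for all genes. In cellulose 12 of 17, and in rice straw 14 of 17, were below sucrose. With actin and histone, 3 of 17 were below sucrose in cellulose and the median turned to 0.76, under a median of 1.02 for all genes. Der1 in cellulose and Doa1 in rice straw had the lowest ratios of the whole list.

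**Figure D5:**
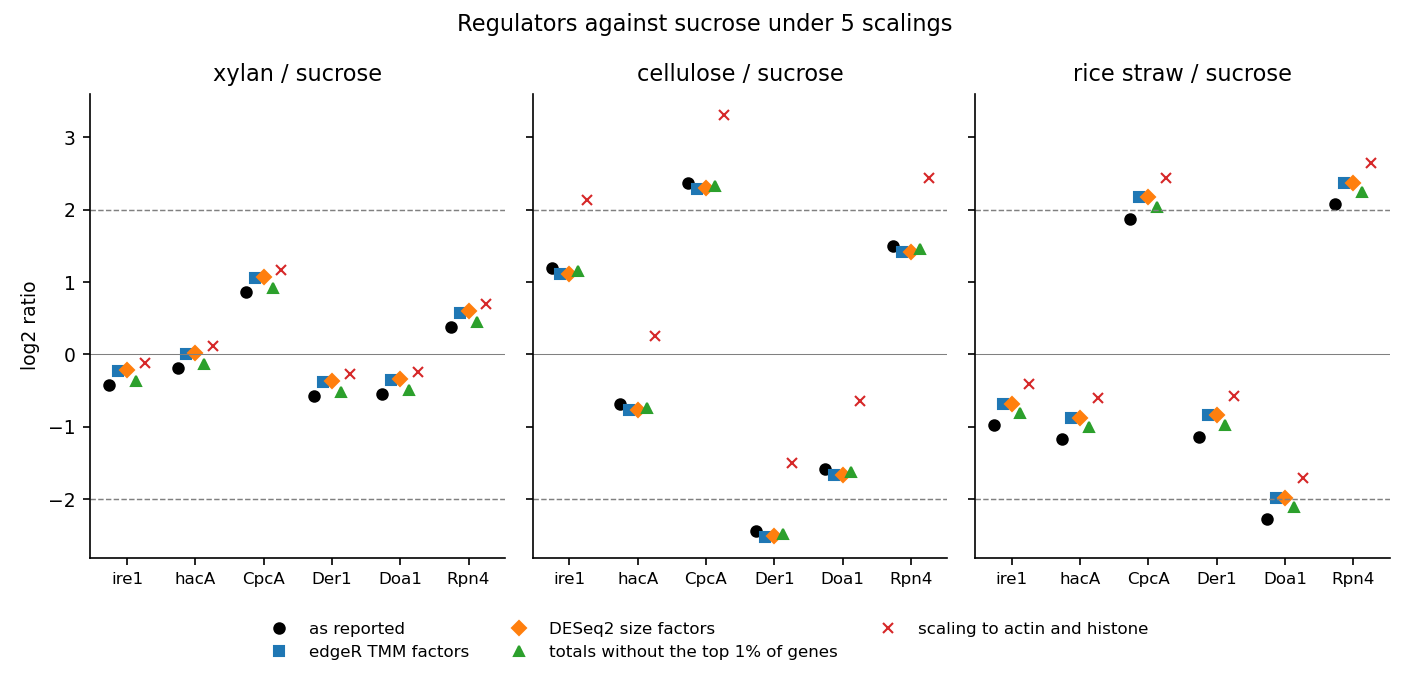
Log2 ratio against sucrose of each regulator under 5 scalings: library totals (as reported), TMM factors, DESeq2 size factors, totals without the most abundant 1% of genes, and actin with histone; dashed lines mark 4-fold. CpcA in rice straw, at 1.87 with totals, crossed the 4-fold line under the 4 others, and Doa1 in rice straw, at -2.28 with totals, came back inside it under 3 of them.

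Actin (Y699_04988) and histone (Y699_07225), the reference genes of the study's qPCR, were themselves lower than sucrose in cellulose under total scaling. Actin was 2.12-fold (2.01 to 2.24) and histone 1.74-fold (1.69 to 1.79) lower there, so scaling to them raised every cellulose ratio by 0.94 on the log2 scale. In xylan and rice straw the same scaling raised ratios by 0.31 and 0.57.

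The genes with the pattern most like each regulator were sought among the 6705 genes whose mean over the libraries reached 10 RPM, as the smallest root mean square difference of log2 RPM over the 4 libraries after centring. For Rpn4 these were the peroxisome factor PEX11 (Y699_03932) at a difference of 0.04 and the ceramide synthase component LAG1 (Y699_04191) at 0.07. PEX11 had 43.1, 53.1, 116 and 170 RPM in sucrose, xylan, cellulose and rice straw. For CpcA they were a hypothetical protein (Y699_05231) and the sugar transporter Stl1 (Y699_05515), both at 0.09. For Doa1 they were the spindle pole body protein SnaD (Y699_00338) and a glutamic acid-rich protein (Y699_04026), both at 0.05. The nearest to ire1 were Y699_02941 at 0.08 and Y699_01697 at 0.08, to hacA Y699_08944 at 0.03 and to Der1 Y699_03620 at 0.07, none with a name in the sources used here. Among the 6 themselves, CpcA and Rpn4 were nearest to each other, at 0.42, and hacA and Doa1 to each other, at 0.43. For ire1 the nearest other regulator was hacA at 0.84. Over only 4 libraries such likeness describes the levels and nothing more.

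The genes on either side of each regulator in locus tag order were read for signs of shared reads, since the strand of the counting is not given in the sources used here. None of the genes beside ire1, CpcA, Der1, Doa1 or Rpn4 was called at 4-fold against sucrose, but a neighbour of ire1 and one of Rpn4 differed in cellulose by about as much as the regulator did. Beside ire1, Y699_07091 was 2.34-fold (1.92 to 2.88) higher in cellulose, against 2.29-fold for ire1, and 1.36-fold (1.05 to 1.76) lower in rice straw, against 1.97-fold. Beside Rpn4, Y699_04992 was 2.44-fold (2.28 to 2.61) higher in cellulose, against 2.82-fold for Rpn4, but 1.85-fold (1.67 to 2.04) lower in xylan and 1.25-fold (1.15 to 1.36) lower in rice straw, where Rpn4 was higher. Whether reads were shared was not tested. Beside CpcA, Y699_04897 was 1.40-fold (1.35 to 1.46) higher in cellulose, against 5.18-fold for CpcA. The only neighbour called at 4-fold was Y699_02023 beside hacA, annotated as the rRNA processing protein Bystin. It was 7.46-fold (6.34 to 8.82) higher in cellulose, where hacA was lower. On the other side of hacA, Y699_02025 was 1.46-fold (1.20 to 1.78) lower in cellulose, against 1.61-fold for hacA. It was 1.44-fold (1.18 to 1.75) lower in xylan, against 1.14-fold, and 1.17-fold (0.98 to 1.41) lower in rice straw, against 2.25-fold.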

How the data were processed

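The authors mapped reads to the gene models of strain Z5 (Bowtie 0.12.2 in the submitters' notes) and deposited counts of reads per gene for 4 libraries. The deposited RPM values equal reads per 1000000 reads on genes and are not divided by gene length. The reference was the study's own assembly of strain Z5, and the sources used here do not give strand or multiple mapping. Deposited gene lengths are multiples of 3 for all 9540 genes and were taken as coding length. The authors' own comparison columns (log2 fold changes, q-values and directions) were not used.

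Counts were scaled by library totals. For each of 6 pairs, the reads of every gene seen in either library entered a two-sided exact binomial test, adjusted by Benjamini-Hochberg over those genes. The study's thresholds for a call were used: 4-fold, 10 RPM in either library and q no higher than 0.0001. With 1 library per carbon source no p-value is printed. Ratios carry Clopper-Pearson and levels Poisson intervals at 95%. A count of 0 was replaced by 0.5 reads in log2 ratios, and 0.5 reads were added to all counts for pattern likeness. Scripts were tested on simulated data. Alternatives were edgeR 4.0.16 TMM factors, DESeq2 1.42.0 size factors, totals without the most abundant 1% of genes, actin and histone, a 2-fold threshold, no RPM minimum and edgeR's exact test with assumed variation. Python 3.11.15, scipy 1.17.1 and R 4.3.3 were used.

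The 6 regulators and the lists were chosen with earlier results of these data known. The UPR, ERAD, proteasome and folding lists are the study's secretory pathway groups, taken by name. Genes named beside the regulators were those of the UPR, ERAD and proteasome lists that were called against sucrose, the 2 most abundant of each list, 5 folding genes, the reference genes and the 2 nearest patterns per regulator; of the nearest genes without a name, 4 are printed. The UPR genes other than the regulators, the folding genes beyond those 5, Rpn2 and the genes next to a regulator were named outside this rule, after their values were seen. Conidiation genes served as markers of another cell type.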

Additional observations from a re-analysis of the deposited data

How the results depend on the processing

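With 1 library per carbon source, variation between cultures is unknown, no library could be left out, and depth limits mainly Der1 (65 reads in cellulose). No paired analysis was possible because each carbon source has 1 library. With no RPM minimum, or an assumed variation of 0.2, the number of regulators called stayed the same in all 6 comparisons. The cause of the changes below was not tested, beyond the shifts that each scaling makes by construction.

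Log2 ratios that turned sign were hacA in xylan against sucrose (0.0029 with TMM, 0.0206 with DESeq2, 0.12 with actin and histone), hacA in cellulose against sucrose (0.25 with actin and histone) and hacA in cellulose against xylan (0.13 with actin and histone). Calls lost were ire1 in cellulose against rice straw (1.80 with TMM, 1.79 with DESeq2, 1.96 without the most abundant 1%), Der1 in cellulose against sucrose (-1.49 with actin and histone) and Doa1 in rice straw against sucrose (-1.98 with TMM, -1.98 with DESeq2, -1.71 with actin and histone). A call was gained by CpcA in rice straw against sucrose (2.17 with TMM, 2.17 with DESeq2, 2.04 without the most abundant 1%, 2.44 with actin and histone). Der1 gained one in cellulose against xylan (-2.13 with TMM, -2.15 with DESeq2). With actin and histone, ire1 gained calls in cellulose against sucrose (2.13) and xylan (2.25). CpcA in cellulose against xylan (2.14) and Rpn4 in cellulose against sucrose (2.44) gained calls under that scaling too. It called 2026 of 9423 genes higher in cellulose against sucrose and 1653 of 9406 against xylan. Calls gained with actin and histone in cellulose therefore do not set the regulators apart.

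The number of regulators called changed to 5 in cellulose and 5 in rice straw against sucrose, 5 in cellulose and 3 in rice straw against xylan and 2 in cellulose against rice straw at 2-fold. Of all genes tested, 2177 of 9406 were then called higher and 1256 lower in cellulose against xylan. These counts were 1152 and 1260 of 9410 in rice straw against xylan, and 1976 and 966 of 9412 in cellulose against rice straw. With an assumed variation of 0.4 the number of regulators called was 0 in cellulose and 0 in rice straw against sucrose and 0 in cellulose against rice straw. Ratios of their size cannot reach the q threshold in that setting. In cellulose against xylan the number of regulators called was 1 with TMM, 1 with DESeq2 and 2 with actin and histone. Of all genes, 700 were called higher and 733 lower there with TMM, 694 and 742 with DESeq2, and 1653 and 399 with actin and histone. In cellulose against rice straw the number of regulators called was 0 with TMM, 0 with DESeq2 and 0 without the most abundant 1%. The counts of all genes there were 348 and 544, 348 and 545, and 409 and 488, in that order. Against sucrose at 2-fold, 20.9% of all genes were called higher and 16.6% lower in cellulose. These shares were 14.4% and 21.8% in rice straw, and 7.5% and 8.98% in xylan. With actin and histone, 2026 of all genes were called higher and 357 lower in cellulose at 4-fold. The list counts that follow are to be read beside these. UPR genes called against sucrose numbered 2 in cellulose and 3 in rice straw at 2-fold. In cellulose they numbered 2 with actin and histone and 0 with variation of 0.4. In rice straw 1 was called under each of the 4 scalings. Of the 19 ERAD genes, 9 were called in rice straw, 8 in cellulose and 3 in xylan at 2-fold, which does not set the list apart. In xylan 1 was called with TMM, DESeq2 or actin and histone, beside 353, 356 and 369 of all genes higher and 111, 106 and 84 lower. The ERAD genes called numbered 0 in rice straw with TMM or DESeq2, and 0 in cellulose and rice straw with variation of 0.4. Proteasome genes called numbered 6 in cellulose and 11 in rice straw at 2-fold, 1 in cellulose with actin and histone and 0 in rice straw with variation of 0.4. Of the 12 counts of all genes called (6 pairs, both directions), 1 moved by over 1.5 times with TMM, 1 with DESeq2, 7 with actin and histone, and 12 with the 2-fold threshold and with variation of 0.4, where they ran from 704 to 2177 and from 13 to 209.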
